A study of Mus musculus with 6 samples.

Results

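AP-1 is a transcription factor assembled from pairs of basic leucine zipper (bZIP) proteins, and its subunit genes were followed here in macrophages with reduced *Etv5*. The subunits described are the 10 genes *Fos*, *Fosb*, *Fosl1*, *Fosl2*, *Jun*, *Junb*, *Jund*, *Atf3*, *Batf* and *Maff*, taken by gene symbol from the 24786 symbols of the expression table. Raw264.7 is a mouse macrophage line raised from a tumor induced by Abelson leukemia virus, which the labels list under strain C57BL/6 and postnatal day 21. Polyadenylated RNA was sequenced from cells infected with lentivirus carrying either the control hairpin (sh-NC, n = 3 libraries) or a hairpin directed at *Etv5* (sh-*Etv5*, n = 3 libraries). Lipofectamine 3000 was used in both groups, and per the labels expression was read 24 or 48 h after infection, whereas the study describes the sequenced cells as stably transfected and selects infected cells with puromycin over passages, so the time from infection to harvest is unclear. The sources do not say which of the *Etv5* hairpins was sequenced, whether a single clone or a mixed culture was taken, or whether libraries of a group came from separate cultures. P-values therefore measure the spread between these libraries, which may be technical.

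Members of the Fos family cannot pair with each other and bind DNA as partners of a Jun protein, whereas Jun proteins also form pairs among themselves. ATF3 belongs to the same bZIP class and, as a pair with itself, is known as a repressor. BATF and the small Maf protein MAFF carry a zipper and a DNA-binding region but no transactivation domain, and they act through their partners. Many of these genes are immediate-early genes, which growth factors, cytokines and bacterial products switch on within minutes through MAP kinases, and in macrophages AP-1 cooperates with NF-κB at inflammatory genes.

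Values are RPKM (reads per kilobase of gene, scaled to mapped reads) as deposited, so that levels of different genes can be compared per length. Read depth cannot be told from such values. Differences were tested with limma on log2(RPKM + 1) in the 10738 genes with at least 1 RPKM in at least 3 libraries, and a Benjamini-Hochberg adjusted p-value under 0.05 was called. Because of the added 1, fold changes of genes with low RPKM come out too small. In bulk RNA, a change in the share of responding cells and a change in RNA per cell cannot be told apart.

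The libraries of a group resembled each other closely, with a Pearson correlation of log2(RPKM + 1) across genes of 0.996 to 0.997 within groups and 0.913 to 0.915 between groups, although genes are not independent replicates. *Etv5* itself fell from 9.49 ± 0.367 to 5.13 ± 0.196 RPKM (SD, n = 3), or -0.78 in log2 fold change (adjusted p = 2.74e-07 by limma). Of the 10 macrophage markers, *Mertk* was below the filter. Of the 9 tested, 4 rose and 4 fell (all tested genes, 33.3% higher and 41% lower), with the largest changes for *Itgam* (log2 fold change 1.88), *Adgre1* (1.77) and *Csf1r* (-0.81), and the summed level of all 10 ran from 4490 to 4616 RPKM in sh-NC and from 3587 to 3704 RPKM in sh-*Etv5* libraries. Of 14 markers of fibroblasts, lymphocytes, epithelium, endothelium and neutrophils, 13 were below the filter. The exception was *S100a8*, a calcium-binding protein of neutrophils and inflamed myeloid cells, which rose from 0.306 ± 0.184 to 17.1 ± 2.29 RPKM (SD, n = 3), while the neutrophil gene *Elane* was listed at 0 in all libraries. The summed level of these markers ran from 0.491 to 0.796 RPKM in sh-NC and from 16.3 to 20.3 RPKM in sh-*Etv5* libraries, and the part of such cells in the results below was not tested.

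All 9 AP-1 subunits that passed the filter rose in sh-*Etv5* cells, against 33.3% of all tested genes called higher, 41% called lower and 74.3% called in either direction. *Fosb*, at under 1 RPKM in every library, was the subunit below the filter. For each of the 10 genes, every sh-*Etv5* library was above every sh-NC library, a separation that 34.3% of tested genes showed in this direction and 42.1% in the opposite one. The median log2 fold change of the 9 tested subunits was 1.27, compared with -0.05 over all tested genes, and 7 of the 9 exceeded 1, against 6.23% of tested genes called higher with a log2 fold change above 1. *Batf* entered the test through its sh-*Etv5* libraries alone, so that its rise was in part a condition of being tested. Summed over the 10 subunits, AP-1 transcripts amounted to 163.3, 160.0 and 164.3 RPKM in sh-NC and to 486.7, 472.3 and 471.8 RPKM in sh-*Etv5* libraries, a 2.93-fold higher mean (two-sided exact permutation p = 0.1, the smallest that 3 against 3 libraries can give).

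**Figure D1:**
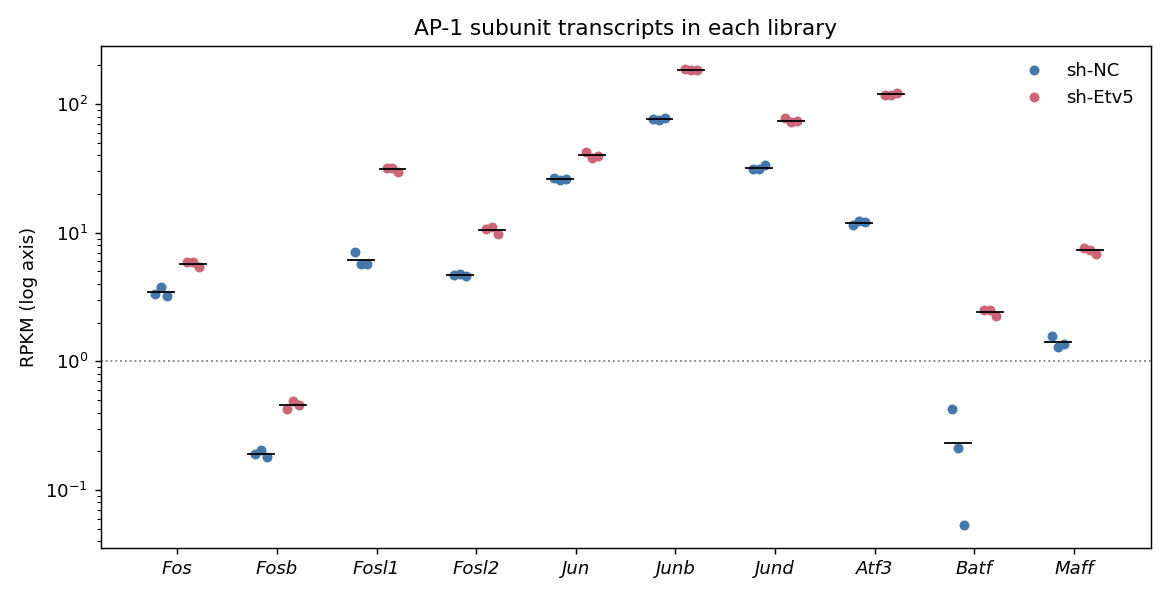
RPKM of each AP-1 subunit in each of the 3 sh-NC and 3 sh-Etv5 libraries on a log axis, with the group mean as a short line and the filter of 1 RPKM dotted. Every sh-Etv5 point lies above the sh-NC points of the same gene, and the sh-NC points of *Batf* are spread widest, between 0.0536 and 0.426 RPKM.

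The order of the levels changed little apart from *Atf3*. In sh-NC cells the order was *Junb*, *Jund*, *Jun*, *Atf3*, *Fosl1*, *Fosl2*, *Fos*, *Maff*, *Batf* and *Fosb*, and the libraries of neighbors in this order overlapped for *Batf* and *Fosb* alone. In sh-*Etv5* cells *Atf3* stood second, behind *Junb* and ahead of *Jund*, and *Maff* stood ahead of *Fos*. There the libraries of neighboring genes did not overlap at any step.

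Among the Fos family, the partners of Jun proteins, *Fosl1* changed most and *Fos* least of the tested genes. *Fosl1* encodes FRA-1, which lacks the C-terminal transactivation domain of FOS. It was at 7.05, 5.70 and 5.75 RPKM in sh-NC and at 32.0, 31.7 and 29.5 RPKM in sh-*Etv5* libraries. Even the highest sh-NC library was far below the lowest sh-*Etv5* library, which was 4.18 times as high. The log2 fold change was 2.17 (standard error [SE] 0.0715, adjusted p = 4.68e-10 by limma). *Fosl1* (ENSMUSG00000024912.6) lies on the plus strand of chromosome 19 from 5447547 to 5455946 in GRCm38, and 57.2% of its exonic bases are also exon of *Ccdc85b* on the opposite strand. The library kit does not mark strand, so reads from that stretch cannot be assigned to either gene. *Ccdc85b* rose as well, from 8.50 ± 0.317 to 12.8 ± 0.360 RPKM (SD, n = 3), or 0.54 in log2 fold change (adjusted p = 2.26e-06 by limma). In sh-NC cells its mean was above the 6.17 RPKM of *Fosl1*, and in sh-*Etv5* cells it was below the 31.1 RPKM of *Fosl1*. The shared stretch is 1163 of the 4715 exonic bases of *Ccdc85b*, so reads of *Fosl1* can also enter the *Ccdc85b* values. The part of either gene in the values of the other was not tested.

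*Fosl2*, which encodes the related FRA-2, was at 4.68, 4.81 and 4.64 RPKM in sh-NC and at 10.6, 11.1 and 9.71 RPKM in sh-*Etv5* libraries. The groups stood well apart, with a log2 fold change of 1.01 (SE 0.0606, adjusted p = 5.67e-08 by limma). *Fos*, the founding member of the family and the usual example of an immediate-early gene, was low in both groups. It was at 3.36, 3.78 and 3.22 RPKM in sh-NC and at 5.95, 5.93 and 5.39 RPKM in sh-*Etv5* libraries. Its rise was small but larger than the spread, with a log2 fold change of 0.60 (SE 0.0705, adjusted p = 1.39e-05 by limma). *Fosb* was at 0.191, 0.205 and 0.180 RPKM in sh-NC and at 0.426, 0.492 and 0.456 RPKM in sh-*Etv5* libraries. These levels are near 0 in both groups. Without the filter its log2 fold change was 0.29 (adjusted p = 0.000562 by limma).

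*Fos* (ENSMUSG00000021250.13) lies on the plus strand of chromosome 12 from 85473890 to 85477273 in GRCm38, and *Batf* follows on the same strand after 209 kb. The 250 bases before the start of *Fos* are shown because this promoter is the textbook case of stimulus-driven AP-1 transcription (RefSeq, GRCm38.p6, chr12:85473640-85473889, plus strand). Capitals mark an ETS core (CGGAAG), CRE cores (TGACG, the first letters of the element bound by CREB and ATF proteins) and a TATA box (TATAAA).
Fos promoter: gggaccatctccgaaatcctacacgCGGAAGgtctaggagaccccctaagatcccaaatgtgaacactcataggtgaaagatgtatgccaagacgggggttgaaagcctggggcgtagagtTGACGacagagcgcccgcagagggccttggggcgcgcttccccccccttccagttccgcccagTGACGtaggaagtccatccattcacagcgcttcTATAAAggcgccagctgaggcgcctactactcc

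The Jun family supplied most AP-1 transcripts in both groups. *Junb*, often a weaker activator than JUN and abundant in myeloid cells, was the highest of the subunits. It was at 76.4, 74.6 and 77.7 RPKM in sh-NC and at 188, 186 and 183 RPKM in sh-*Etv5* libraries. The means stood 109 RPKM apart, with a log2 fold change of 1.27 (SE 0.0323, adjusted p = 6.30e-11 by limma). *Jund*, which is usually expressed without a stimulus, was at 31.3, 31.2 and 33.4 RPKM in sh-NC and at 78.1, 72.0 and 73.3 RPKM in sh-*Etv5* libraries. It rose by nearly the same factor as *Junb*, with a log2 fold change of 1.20 (SE 0.0437, adjusted p = 1.04e-09 by limma) and overlapping confidence intervals of 1.20 to 1.34 for *Junb* and 1.10 to 1.29 for *Jund*. *Jun*, which encodes c-JUN, the classical substrate of the kinase JNK, had the smallest value of the tested subunits, next to *Fos*. It was at 26.7, 25.9 and 25.9 RPKM in sh-NC and at 42.6, 38.2 and 39.4 RPKM in sh-*Etv5* libraries. The log2 fold change of *Jun* was 0.59 (SE 0.0457, adjusted p = 4.39e-07 by limma), and its confidence interval of 0.49 to 0.69 overlapped that of *Fos*, 0.45 to 0.76.

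These genes consist of a single exon, and each overlaps exons of a gene on the opposite strand. *Junb* (ENSMUSG00000052837.6, chromosome 8, 84974484 to 84978718, minus strand) shares 7.52% of its exonic bases with *Prdx2*, which went the other way, from 86.2, 85.6 and 81.4 RPKM in sh-NC to 75.9, 70.7 and 78.3 RPKM in sh-*Etv5* libraries (adjusted p = 0.00427 by limma). *Jund* (ENSMUSG00000071076.6, chromosome 8, 70698949 to 70700616, plus strand) shares 52.6% with *Gm11175*, and *Jun* (ENSMUSG00000052684.4, chromosome 4, 95049034 to 95052222, minus strand) shares 7.28% with *Junos*. No row of the table carries the symbol of either partner, so reads from them could not be set apart from those of *Jund* and *Jun*. No 50-base stretch of *Fos*, *Fosb*, *Fosl2*, *Atf3*, *Batf* or *Maff* transcripts occurs in a transcript of another gene, and in the other subunits such stretches were shared with the opposite-strand partner alone.

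The promoters of *Junb* and *Jun* are shown side by side because they had the largest and the smallest fold change of the Jun family (RefSeq, GRCm38.p6, chr8:84978749-84978998 and chr4:95052223-95052472, both minus strand, 250 bases before the start). Capitals mark a CRE core and an ETS core, read on the other strand as CTTCCG, in *Junb*. None of the motifs searched was found in these bases of *Jun*, and near matches to a motif were not counted. None was found in the 250 bases before the RefSeq start of *Jund* either, and the log2 fold change of *Jund* was 1.20. Those *Jund* bases (chr8:70697489-70697738, plus strand) lie well before the gene span given above, which begins at 70698949. The bases next to that span were not searched, so its motifs are unknown here.
Junb promoter: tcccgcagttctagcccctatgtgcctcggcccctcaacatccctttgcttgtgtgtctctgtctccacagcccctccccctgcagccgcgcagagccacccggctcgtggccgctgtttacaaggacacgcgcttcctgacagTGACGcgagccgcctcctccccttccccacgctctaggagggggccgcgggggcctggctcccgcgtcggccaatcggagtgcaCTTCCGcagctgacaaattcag
Jun promoter: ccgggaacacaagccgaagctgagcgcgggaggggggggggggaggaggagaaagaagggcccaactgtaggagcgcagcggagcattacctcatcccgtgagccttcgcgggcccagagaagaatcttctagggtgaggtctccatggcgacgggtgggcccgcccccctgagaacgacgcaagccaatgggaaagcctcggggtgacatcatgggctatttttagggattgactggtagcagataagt

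*Atf3*, a stress-induced gene downstream of several kinases and of ATF4, had the largest log2 fold change of the subunits on the log2(RPKM + 1) scale. By the fold of means *Batf* was ahead, at 10.5 against 9.96, and in RPKM *Junb* rose by slightly more, 109 against 108. It was at 11.6, 12.4 and 12.1 RPKM in sh-NC and at 119, 117 and 123 RPKM in sh-*Etv5* libraries. The lowest sh-*Etv5* library was 9.48 times the highest sh-NC library. The log2 fold change was 3.21 (SE 0.0394, adjusted p = 1.53e-13 by limma), the value of rank 46 among the 10738 tested genes. *Atf3* (ENSMUSG00000026628.13, chromosome 1, 191170296 to 191218039, minus strand) overlaps no exon of another gene. The RefSeq start used for *Atf3* lies inside this span, and no other start of the gene was searched. The 30 bases before the start used (GRCm38.p6, chr1:191183334-191183363, minus strand) hold a CRE core next to it, read on the other strand as CGTCA and given in capitals.
Atf3 start: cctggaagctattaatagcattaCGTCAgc

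*Batf* and *Maff*, whose proteins have no transactivation domain, were low in sh-NC cells and rose by a large factor. *Batf*, a partner of JUN proteins that also joins IRF factors on DNA, was at 0.426, 0.212 and 0.0536 RPKM in sh-NC and at 2.53, 2.51 and 2.24 RPKM in sh-*Etv5* libraries. The sh-NC libraries varied widely around a value near 0, with an SD of 81.0% of the mean, whereas the sh-*Etv5* libraries lay close together. Its log2 fold change was 1.49 (SE 0.112, adjusted p = 3.48e-07 by limma), and the size depended on the pseudocount, reaching 3.11 with 0.1 and 3.73 with 0.01 in place of 1. *Batf* (ENSMUSG00000034266.6) lies on chromosome 12 from 85686669 to 85709087.

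*Maff*, a small Maf protein that pairs with NRF-type, BACH and some AP-1 proteins, was at 1.57, 1.28 and 1.38 RPKM in sh-NC and at 7.68, 7.39 and 6.88 RPKM in sh-*Etv5* libraries. The groups did not approach each other, and the log2 fold change was 1.79 (SE 0.0729, adjusted p = 2.49e-09 by limma). *Maff* (ENSMUSG00000042622.14, chromosome 15, 79346621 to 79359076, plus strand) has several starts in RefSeq. The 250 bases before the start at which a full CRE palindrome (TGACGTCA, in capitals) was found are shown (GRCm38.p6, chr15:79347270-79347519, plus strand).
Maff promoter: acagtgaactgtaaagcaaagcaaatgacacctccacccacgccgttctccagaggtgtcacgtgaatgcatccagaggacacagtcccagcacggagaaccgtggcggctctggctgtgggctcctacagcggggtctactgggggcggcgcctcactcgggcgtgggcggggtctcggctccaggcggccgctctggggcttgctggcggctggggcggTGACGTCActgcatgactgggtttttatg

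**Figure D2:**
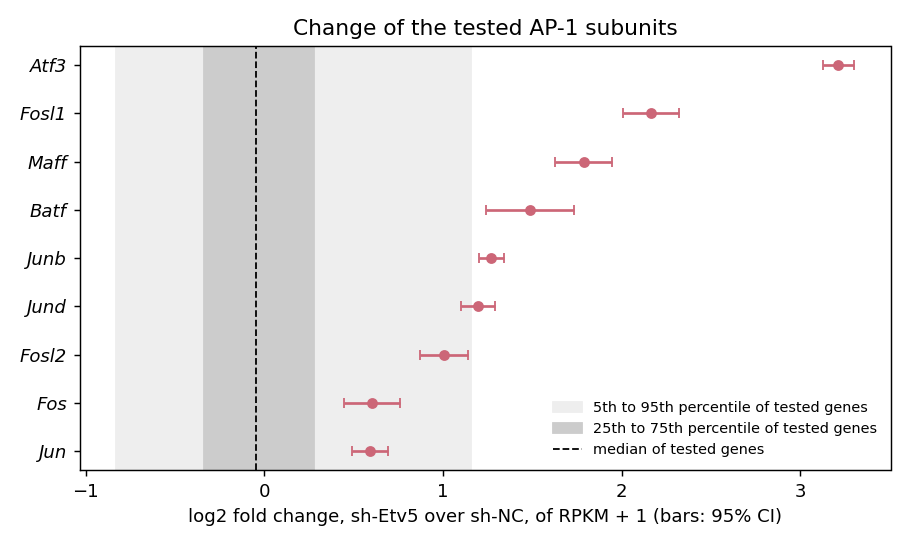
Log2 fold change of the 9 tested subunits with 95% confidence intervals from limma, against the 10738 tested genes (light grey, 5th to 95th percentile, dark grey, 25th to 75th, dashed line, median). The values run from 0.59 for *Jun* to 3.21 for *Atf3*, and the points of *Atf3*, *Fosl1*, *Maff*, *Batf*, *Junb* and *Jund* lie above the 95th percentile of tested genes, 1.16.

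RefSeq promoter windows, from 250 bases before to 50 after a start, were at hand for 9 of the 10 subunits, as 11 windows. *Fosl1* had none, so its motifs are unknown here, and *Maff* had more than 1. The 250 bases before a start held from 46.4% (*Batf*) to 68.8% (*Fosb*) G or C, against a median of 52.4% over all windows. Shares of all windows given below count windows and are not matched for this. The AP-1 site TGACTCA was in none of these windows on either strand, against 5.20% of all 32851 windows. A CArG box, the element of the serum response factor, was likewise in none, against 1.63%. Bases farther than 250 before a start were not searched, so elements lying there would be missed, also for *Fos*. The ETS core CGGAAG, the letters that most ETS factors share, was in the windows of *Fos*, *Fosl2*, *Junb* and *Batf*, against 16.9% of all windows. The CRE core TGACG, which is part of the full palindrome and was added after the letters had been seen, was in those of *Fos*, *Fosb*, *Junb*, *Atf3*, *Batf* and *Maff*, against 20.8%, and the full palindrome was in 1 *Maff* window, against 1.79%. The TATA box letters were in the windows of *Fos* and *Junb*, against 13.6%. In *Junb* they began at the RefSeq start itself, just after the 250 bases shown. They were still upstream of the gene span given above, which on the minus strand begins at 84978718. A match of letters is not a bound site, and binding of ETV5 was not analysed here.

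Since the subunits rose by unequal factors, the make-up of AP-1 transcripts differed between the groups. *Atf3* made up 7.08%, 7.74% and 7.34% of the summed RPKM of the 10 subunits in sh-NC and 24.4%, 24.9% and 26.0% in sh-*Etv5* libraries. The Jun family held 82.3%, 82.3% and 83.4% in sh-NC and 63.5%, 62.6% and 62.6% in sh-*Etv5* libraries. The share of *Jun* alone went from 16.1% ± 0.302 to 8.39% ± 0.333 and that of *Junb* from 46.9% ± 0.347 to 38.9% ± 0.351 (SD, n = 3). Thus a transcript can be higher in RPKM and lower as a share, as all 3 Jun genes were. The share of the Fos family was 8.94% ± 0.495 in sh-NC and 10.0% ± 0.445 in sh-*Etv5* libraries (SD, n = 3). None of these libraries overlapped between the groups, and the exact permutation p was 0.1 for each share, which is the smallest possible here.

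**Figure D3:**
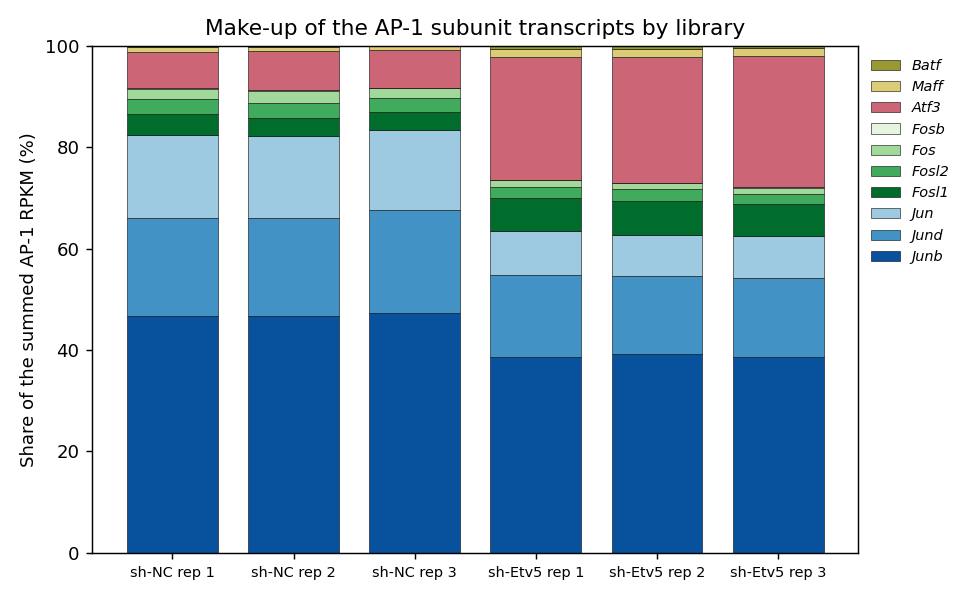
Share of each subunit in the summed RPKM of the 10 AP-1 subunits, in percent, with 1 bar per library. The *Atf3* segment covers 7.39% of the bar on average in sh-NC and 25.1% in sh-Etv5 libraries, and the Jun segments 82.7% and 62.9%.

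Within the Fos family, *Fosl1* went from 42.4% ± 3.46 to 65.1% ± 0.558 of the family's summed RPKM (SD, n = 3), while *Fos* went from 23.8% ± 2.08 to 12.1% ± 0.0916 and *Fosl2* from 32.5% ± 1.65 to 21.9% ± 0.541. The *Fosl1* values include reads of the stretch shared with *Ccdc85b*. Within the Jun family the shares moved less, for *Junb* from 56.8% ± 0.0916 to 61.8% ± 0.906 and for *Jun* from 19.5% ± 0.502 to 13.3% ± 0.431 (SD, n = 3). The share of *Jund* overlapped between the groups, at 23.8% ± 0.556 and 24.8% ± 0.475 (SD, n = 3, two-sided exact permutation p = 0.2). The ratio of summed Fos-family to summed Jun-family RPKM was 0.114, 0.110 and 0.101 in sh-NC and 0.159, 0.167 and 0.153 in sh-*Etv5* libraries. The groups did not overlap (two-sided exact permutation p = 0.1), and Jun-family transcripts stayed in excess in every library.

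For *Atf3* and *Fosl1*, the subunits with the largest log2 fold change at a pseudocount of 1, the genes nearest in level and change were sought by Euclidean distance over the 6 libraries in log2(RPKM + 1). For *Atf3* these were *Ehd1* (distance 0.903), *Ddit3* (1.03) and *Il1rn* (1.09), and for *Fosl1* they were *Acsbg1* (0.236), *Stk40* (0.354) and *Osgin2* (0.364). With 2 groups, such a distance mostly reflects the level in each group.

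Other bZIP genes, which can pair with AP-1 subunits or share their sites, were mostly higher as well. Of 22 such genes, 18 were tested, 12 rose and 4 fell (all tested genes, 33.3% higher and 41% lower), with a median log2 fold change of 0.61. *Ddit3*, which encodes the stress factor CHOP, rose from 8.48 ± 0.494 to 154 ± 6.24 RPKM (SD, n = 3; log2 fold change 4.04, limma adjusted p = 1.29e-13). *Cebpd*, a C/EBP factor of the acute phase, rose from 11.4 ± 1.61 to 59.8 ± 2.66 RPKM (SD, n = 3; log2 fold change 2.31). *Cebpa*, the C/EBP factor of myeloid differentiation, fell from 17.3 ± 1.01 to 6.29 ± 0.523 RPKM (SD, n = 3; log2 fold change -1.33). Some further genes are named after their values were seen, for their kinship with the subunits. *Jdp2*, an inhibitory partner of JUN, had a log2 fold change of 0.95, and the small Maf genes *Mafk* and *Mafg* had values of 0.74 and 0.56, below the 1.79 of *Maff*.

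For genes of the MAP kinase pathways that feed AP-1, the shares called were near those of all tested genes. Of 21 genes, 19 were tested, 6 rose, 8 fell and 5 were not called, against 33.3% of all tested genes called higher and 41% called lower, with a median log2 fold change of 0.00. *Mapk11*, which encodes p38β, rose from 2.61 ± 0.142 to 5.66 ± 0.401 RPKM, whereas *Mapk14*, which encodes p38α, fell from 36.9 ± 0.893 to 24.4 ± 0.775 RPKM (SD, n = 3). *Map3k1*, a kinase upstream of JNK, fell from 8.78 ± 0.355 to 5.48 ± 0.522 RPKM (SD, n = 3). Transcript levels do not measure kinase activity.

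Genes of the serum response factor, its partners and upstream kinases, listed as regulators of *Fos*, were mostly lower. Not all of them need act on *Fos* through the serum response element. All 9 genes of this list were tested, of which 1 rose and 7 fell (all tested genes, 33.3% higher and 41% lower), with a median log2 fold change of -0.35. *Elk1*, a ternary complex factor of the ETS family, was the gene that rose, from 6.06 ± 0.572 to 11.3 ± 0.891 RPKM (SD, n = 3; log2 fold change 0.80, limma adjusted p = 1.97e-06). Its relative *Elk4* fell from 6.45 ± 0.270 to 4.37 ± 0.565 RPKM, and *Rps6ka5*, which encodes the kinase MSK1, fell from 2.34 ± 0.113 to 1.35 ± 0.0336 RPKM (SD, n = 3). *Srf* itself, named after its values were seen, had a log2 fold change of -0.20 (adjusted p = 0.00672 by limma).

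Genes that limit AP-1 by dephosphorylating MAP kinases, by decay of mRNA or by proteolysis were mainly higher. Of 13 tested genes, 8 rose and 2 fell (all tested genes, 33.3% higher and 41% lower), with a median log2 fold change of 1.10, and *Dusp10* had been tested through its sh-*Etv5* libraries alone. *Zfp36*, which encodes the mRNA decay factor tristetraprolin, rose from 19.0 ± 0.588 to 107 ± 2.51 RPKM (SD, n = 3; log2 fold change 2.43). The phosphatase genes *Dusp5* (log2 fold change 2.49) and *Dusp1* (1.99) rose too. The genes that fell, *Zfp36l1* (-0.78) and *Zfp36l2* (-0.83), are relatives of *Zfp36* and were named after their values were seen.

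A list of 25 genes with known AP-1 elements in their control regions held 20 tested genes, of which 16 rose and 3 fell (all tested genes, 33.3% higher and 41% lower), with a median log2 fold change of 1.60. The largest values were those of the chemokine gene *Ccl2* (6.31), of *Nos2* (5.49), which encodes the inducible nitric oxide synthase, and of the cytokine gene *Il6* (5.26, listed at 0 in all sh-NC libraries). Of the tested genes, 5 had passed the filter through sh-*Etv5* libraries alone, *Nos2* and *Il6* among them. Like the other lists, this one was written with earlier results of these data known. The study had already reported the rise of *Il6* in these cells. The genes that fell, named after their values were seen, were *Plau* (-0.99), which encodes urokinase, *Ccnd1* (-0.35), which encodes cyclin D1, and *Trex1* (-0.23). The matrix metalloproteinase genes *Mmp3*, *Mmp9*, *Mmp13* and *Mmp14*, often cited as AP-1 targets, and *Timp1* were below the filter. Several of these genes are also NF-κB targets, and transcript levels do not show which factor acted.

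The rise was not shared by every immediate-early gene. Of 17 immediate-early genes outside AP-1, 14 were tested, 9 rose and 3 fell (all tested genes, 33.3% higher and 41% lower), with a median log2 fold change of 0.62. *Myc*, tested through its sh-*Etv5* libraries alone, *Ier3* and *Plk3* had the largest values, at 3.27, 3.06 and 1.97. *Egr1*, named after its values were seen because it responds to the same stimuli as *Fos*, was at 21.5, 18.0 and 18.7 RPKM in sh-NC and at 19.8, 18.1 and 18.8 RPKM in sh-*Etv5* libraries. The groups overlapped (log2 fold change -0.03, limma adjusted p = 0.685). *Egr2* fell from 3.15 ± 0.368 to 0.392 ± 0.153 RPKM and *Egr3* from 3.18 ± 0.174 to 0.655 ± 0.0937 RPKM (SD, n = 3), and both had passed the filter through sh-NC libraries alone.

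**Figure D4:**
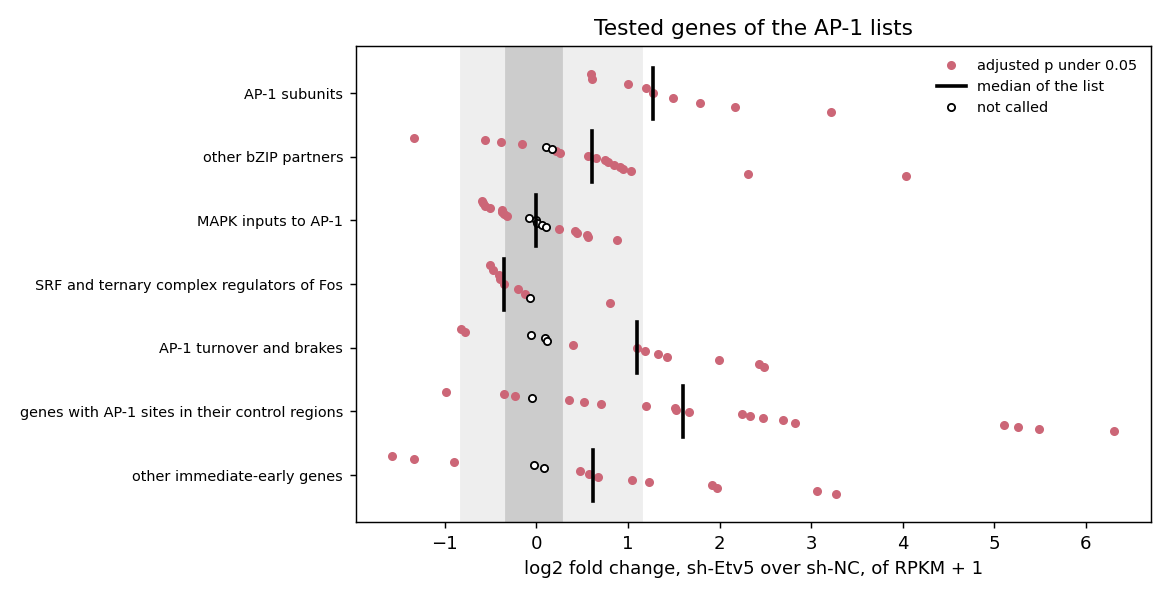
Log2 fold change of each tested gene of the AP-1 subunits and of the 6 related lists, with filled points for a limma adjusted p under 0.05, open points for genes not called, a black line at each list's median and the percentiles of all tested genes in grey (light, 5th to 95th, dark, 25th to 75th). The median is 1.27 for the subunits, near 0 for the MAP kinase genes, -0.35 for the regulators of *Fos* and 1.60 for the genes with AP-1 elements.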

How the data were processed

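RNA of 3 sh-NC and 3 sh-*Etv5* libraries of Raw264.7 cells was analysed. The authors deposited RPKM values without log transformation, 1 per gene symbol and library, taken from coverage tracks per the file headers. The submitters' processing notes name the build mm10, and the library kit was Illumina TruSeq RNA v2. The aligner and annotation are not given in the sources used here. Depth could not be recovered, so no counting error was computed.

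Genes with at least 1 RPKM in at least 3 libraries were compared with limma 3.58.1 in R 4.3.3 on log2(RPKM + 1), with eBayes and an intensity trend, in both directions and without covariate. Shares and sums were compared by exact permutation. The members, lists and rules were chosen with earlier results of these data known. Genes named are the subunits, *Etv5*, the 3 tested genes with the largest change per list, and the 3 nearest profiles of the 2 subunits with the largest log2 fold change. Genes named outside this rule are said to be so, or are named because they were below the filter, passed it through 1 group alone or overlap a subunit. List symbols *Mrtfa*, *Mrtfb* and *Rfwd2* are other names of *Mkl1*, *Mkl2* and *Cop1* and were not counted again. Coordinates, exon overlaps and 50-base matches came from GENCODE M21 on GRCm38, and promoters from RefSeq. Python 3.11.15 with pandas 2.3.3 was used, and the limma step was tested on simulated data. Alternatives changed 1 choice at a time. They were a smaller pseudocount (0.1 or 0.01), dropping the filter or asking for a mean of 5 RPKM, equal library sums, quantile-normalized log2 values, a fit with no intensity trend, replicate number as a block, and leaving out each library.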

Additional observations from a re-analysis of the deposited data

How the results depend on the processing

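The 9 tested AP-1 subunits were followed through 14 alternative fits, which gave 120 values, as not every subunit was tested in each fit. All 120 log2 fold changes were positive with a limma adjusted p under 0.05, and the highest adjusted p was 0.00244. The number of subunits called higher was 10 without the filter, 6 with a mean RPKM of at least 5, and 8 without sh-*Etv5* replicate 1, 2 or 3, since *Batf* then no longer passed the filter. With the replicate block it was 9, and the block changed no call of a subunit. Of the 7 subunits with a log2 fold change above 1, *Fosl2* at 1.01 was the closest to that limit. Across the alternatives its value ran from 0.95 with equal library sums to 1.15 with a pseudocount of 0.01. Same-numbered libraries showed no shared deviation (correlations of 0.0739, -0.0710 and -0.0352), and a pair with different numbers reached 0.105. These values cannot show whether the libraries were prepared as pairs. The block gave 3539 genes higher and 4361 lower, against 3575 and 4399 without it. With a mean RPKM of at least 5, fewer genes were tested, and 3 MAP kinase genes were called higher in place of 6 and 1 other immediate-early gene was lower in place of 3. Leaving out each library in turn gave 1 to 3 such immediate-early genes, with 1 whenever sh-NC replicate 1, 2 or 3 was left out, as *Egr2* and *Egr3* then failed the filter. Of the genes with AP-1 elements, 11 in place of 16 were called higher whenever sh-*Etv5* replicate 1, 2 or 3 was left out. The 5 genes that had passed through sh-*Etv5* libraries alone then failed the filter. Unknown depth leaves counting error unstated.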
